A study of Homo sapiens with 12 samples.

Results

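The genes described here are MYC, its dimerisation partner MAX, the MAX-binding repressor MXD1, and genes that build ribosomes or supply nucleotides and polyamines to growing cells. They were taken from a list of 42 symbols. A gene counted as measured when a probe set was annotated to it alone, and the probe set with the highest mean over all arrays stood for it. By this rule 34 of the 42 genes were measured, among 11963 genes in all. For NOP56, DKC1 and BOP1 the probe sets were annotated to several genes, and LYAR, NOP58, GNL3, DDX18 and EBNA1BP2 were not listed in the probe annotation used. These 8 genes were not analysed here.

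MYC is a transcription factor that binds DNA as a dimer with MAX, most often at the letters CACGTG, called an E-box. MXD1 competes for MAX and represses the same genes. Ribosome production is among the best known programmes under MYC: RNA polymerase I copies ribosomal RNA in the nucleolus, small nucleolar ribonucleoproteins (snoRNPs) modify it, and assembly factors fold and trim it into the 40S and 60S subunits. In acute myeloid leukaemia MYC is known for keeping blasts in growth, and its level falls when myeloid cells mature.

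Total RNA of 2 human acute myeloid leukaemia lines was hybridised to Affymetrix arrays. U937 is a monocytic line and MV4-11 a myelomonocytic line with an MLL fusion and a FLT3 mutation. Every group carried a lentiviral vector with an H1 promoter and green fluorescent protein. Per line, 3 arrays were of cells given a scrambled, non-silencing hairpin and 3 of cells given a hairpin against CHD4, the ATPase of the NuRD chromatin remodelling complex, which gives 4 groups and 12 arrays. The sample labels spell the target CDH4, the series description spells it CHD4, and the number of hairpin sequences or clones behind a group is not given in the labels. CHD4 itself was lower with its hairpin, at 21.8% of the scrambled signal in U937 and 25.1% in MV4-11 (limma adjusted p = 8.78e-06 and 1.35e-05). Values are log2 signals made by RMA, and a log2 change is the hairpin group minus the scrambled group. Each gene's adjusted p comes from 1 limma fit over all 11963 genes, with 0.05 as the threshold for a call.

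The lines were checked against blood cell markers. PTPRC, the pan-leukocyte phosphatase, lay between 10.54 and 11.50 over the 12 arrays and the monocyte lysozyme LYZ between 13.16 and 14.01. CD14 (4.83 to 5.39), MPO (4.97 to 6.13) and FCGR1A (3.59 to 4.05) lay under the array medians, which ran from 6.97 to 7.02. The medians of the lymphocyte, erythroid and epithelial or fibroblast marker lists lay between 5.39 and 6.59 in all 12 arrays, although of the 11 lymphocyte markers CD2 and CD79B rose in both lines and PAX5 fell in U937.

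The promoters of the members are shown first because the E-box is the sequence that MYC and MAX bind. RefSeq promoter windows on GRCh38.p14, from 250 bases before to 50 bases after each annotated start, were found for 30 of the 34 measured genes, in 36 windows. MYC, NOLC1, RRP1B and RRS1 had none in the set searched, which did not cover the whole genome. The letters CACGTG, which read the same on both strands, stood in a window of 17 of the 30 genes (56.7%), against 12% of 9562 genes of the array with a window. The members were listed as genes of a MYC programme, so this share describes the list and is not independent of how it was made. Bases beyond the windows were not searched, so an absence holds for the window alone. Below are stretches from 60 bases before to 30 bases after the start for 7 genes with an E-box and for CAD, which had none in its window. Each is written 5′ to 3′ on the gene's own strand, with the E-box in capitals.
NAT10 chr11:34105569-34105658 +: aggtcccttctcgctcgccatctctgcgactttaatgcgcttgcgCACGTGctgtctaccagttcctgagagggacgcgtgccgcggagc
FBL chr19:39846350-39846439 -: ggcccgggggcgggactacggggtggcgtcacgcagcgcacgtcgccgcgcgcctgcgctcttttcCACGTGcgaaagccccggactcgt
UTP20 chr12:101280045-101280134 +: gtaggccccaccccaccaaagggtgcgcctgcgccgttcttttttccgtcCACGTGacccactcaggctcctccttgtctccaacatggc
ODC1 chr2:10447983-10448072 -: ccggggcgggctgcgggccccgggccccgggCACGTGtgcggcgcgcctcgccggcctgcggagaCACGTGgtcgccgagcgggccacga
RRP9 chr3:51941875-51941964 -: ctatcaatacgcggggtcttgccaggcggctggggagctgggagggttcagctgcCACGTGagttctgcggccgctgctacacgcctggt
PNO1 chr2:68157828-68157917 +: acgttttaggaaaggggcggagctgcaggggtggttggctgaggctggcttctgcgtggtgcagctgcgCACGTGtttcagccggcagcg
WDR43 chr2:28894607-28894696 +: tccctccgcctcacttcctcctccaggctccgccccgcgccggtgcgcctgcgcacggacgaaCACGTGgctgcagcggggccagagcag
CAD chr2:27217309-27217398 +: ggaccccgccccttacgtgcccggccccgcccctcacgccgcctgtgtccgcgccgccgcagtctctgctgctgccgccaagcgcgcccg

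In these stretches the E-box sat close to the start of transcription. Its first base was at position -15 in NAT10, -10 in UTP20 and -5 in RRP9, and at 4 in WDR43, 7 in FBL and 10 in PNO1, counted from 1 at the first transcribed base. ODC1 held 2 E-boxes in the printed window, at -29 and 6, and 0 in the window of an earlier start. Of the 18 E-boxes in all member windows, 16 (88.9%) began between positions -40 and 50, a range chosen after the positions were seen, against 29.1% of 1382 E-boxes in the windows of array genes. The variant CACGCG, or CGCGTG on the other strand, was in windows of 9 of the 30 genes (30%) and of 19.6% of array genes. The windows of the members had a median GC content of 63.7%, and all RefSeq windows outside chromosome 8 one of 58.7%. Windows on that chromosome, which holds MYC and RRS1, were left out before the search, for members and array genes alike. The missing windows of MYC and RRS1 follow from that choice and are not a finding about RefSeq. A match describes letters and does not show that MYC bound there.

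MYC was lower with CHD4 hairpins in both lines. In U937 the scrambled arrays read 12.29, 12.22 and 12.55 and the CHD4 shRNA arrays 11.85, 11.38 and 11.35. In MV4-11 the scrambled arrays read 11.75, 12.06 and 11.97 and the CHD4 shRNA arrays 11.12, 11.45 and 10.55. Every CHD4 shRNA array was below every scrambled array of its line, and the lowest MYC value of the 12 arrays was that of MV4-11 CHD4 shRNA replicate 3. The exact permutation p was 0.1 in each line, the smallest that 3 arrays against 3 can give.

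MYC fell by 0.83 on the log2 scale in U937 (SE 0.20, adjusted p = 0.031), which left 56.4% of the scrambled signal. It fell by 0.89 in MV4-11 (SE 0.20, adjusted p = 0.018), which left 54.1%. Averaged over both lines the change was -0.86 (SE 0.14, 95% interval -1.17 to -0.55, adjusted p = 0.0013). The change in MV4-11 minus that in U937 was -0.06 (95% interval -0.68 to 0.56, adjusted p = 0.98). In U937 MYC did not pass when 1 of 5 arrays was omitted. Omitting a scrambled array gave an adjusted p of 0.084, 0.064 or 0.12 (replicates 1, 2 and 3), and omitting CHD4 shRNA array 2 or 3 gave 0.12 each time. In MV4-11 it did not pass when the first CHD4 shRNA array (adjusted p = 0.055) or scrambled array 2 or 3 (0.064 and 0.061) was omitted, nor in a fit of the MV4-11 arrays on their own (0.067). The averaged call held in all 19 alternative fits, at an adjusted p of up to 0.0052.

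Genes of a monocyte differentiation list were past the threshold in the same arrays. Of its 20 measured genes 5 rose and 1 fell in each line, among them MMP9, FCER1G and AIF1 in both lines and ITGAM in MV4-11, and CTSD was the one that fell. Among all genes 2.67% were higher and 3.69% lower in U937, and 4.73% higher and 4.69% lower in MV4-11. The summed signal of the monocyte list was 31103, 32523 and 23011 in U937 scrambled arrays 1, 2 and 3 and ran from 32153 to 33227 in U937 CHD4 shRNA arrays. Scrambled replicate 3 was thus the low array, and replicate 2 lay within the hairpin range. Scrambled replicate 3 also had the highest MYC value of the group, the highest median over the 34 genes (0.13 from the group mean) and the highest summed proliferation signal (73788, against 62035 and 59448). In MV4-11 it ran from 22508 to 23098 with the scrambled and from 26738 to 34587 with the CHD4 hairpin. The part of either list in the MYC result was not tested, and in RNA of whole cultures fewer cells with a transcript and less of it per cell cannot be told apart. A list of 24 proliferation genes had 0 members past the threshold in either line, with a median change of 0.12 in U937 and 0.13 in MV4-11, where 21 of the 24 were above 0. In the average UBE2C, PLK1 and KIF11 rose, by 0.58, 0.27 and 0.31 (adjusted p = 0.011, 0.033 and 0.035), and 0 fell. Of all genes 8.72% were higher and 10% lower in the average.

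MAX and MXD1 did not follow MYC past the threshold. MAX, the shared partner, read 10.59, 10.62 and 10.55 in U937 scrambled arrays and 10.66, 10.64 and 10.82 in U937 CHD4 shRNA arrays, and in MV4-11 it read 10.46, 10.69 and 10.63 against 10.77, 11.03 and 10.43. The U937 groups did not overlap and the MV4-11 groups did, and the averaged change was 0.14 (95% interval -0.07 to 0.34, adjusted p = 0.38). All 5 MAX probe sets had averaged changes above 0, from 0.12 to 0.30. MXD1, the repressive partner, lay between 4.96 and 5.63 on all arrays, in the dim part of the scale, with an averaged change of -0.14 (95% interval -0.32 to 0.04, adjusted p = 0.31).

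Among 10 other measured genes of the MYC and MAX network, MXI1, another repressor that pairs with MAX, fell in both lines. It read 10.94, 10.84 and 10.84 in U937 scrambled arrays and 10.35, 9.96 and 9.46 with the CHD4 hairpin. In MV4-11 it read 10.79, 11.04 and 11.61 against 9.73, 9.61 and 10.24. All hairpin arrays of a line lay under all its scrambled arrays. The log2 change was -0.95 in U937 (SE 0.24, adjusted p = 0.035) and -1.29 in MV4-11 (SE 0.24, adjusted p = 0.0064). The MYC paralogue MYCL rose in U937 by 0.61 (SE 0.12, adjusted p = 0.012), as did the ubiquitin ligase MYCBP2 by 0.46 (SE 0.12, adjusted p = 0.038). The median change of the 10 was 0.22 in U937 and 0.07 in MV4-11.

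**Figure D1:**
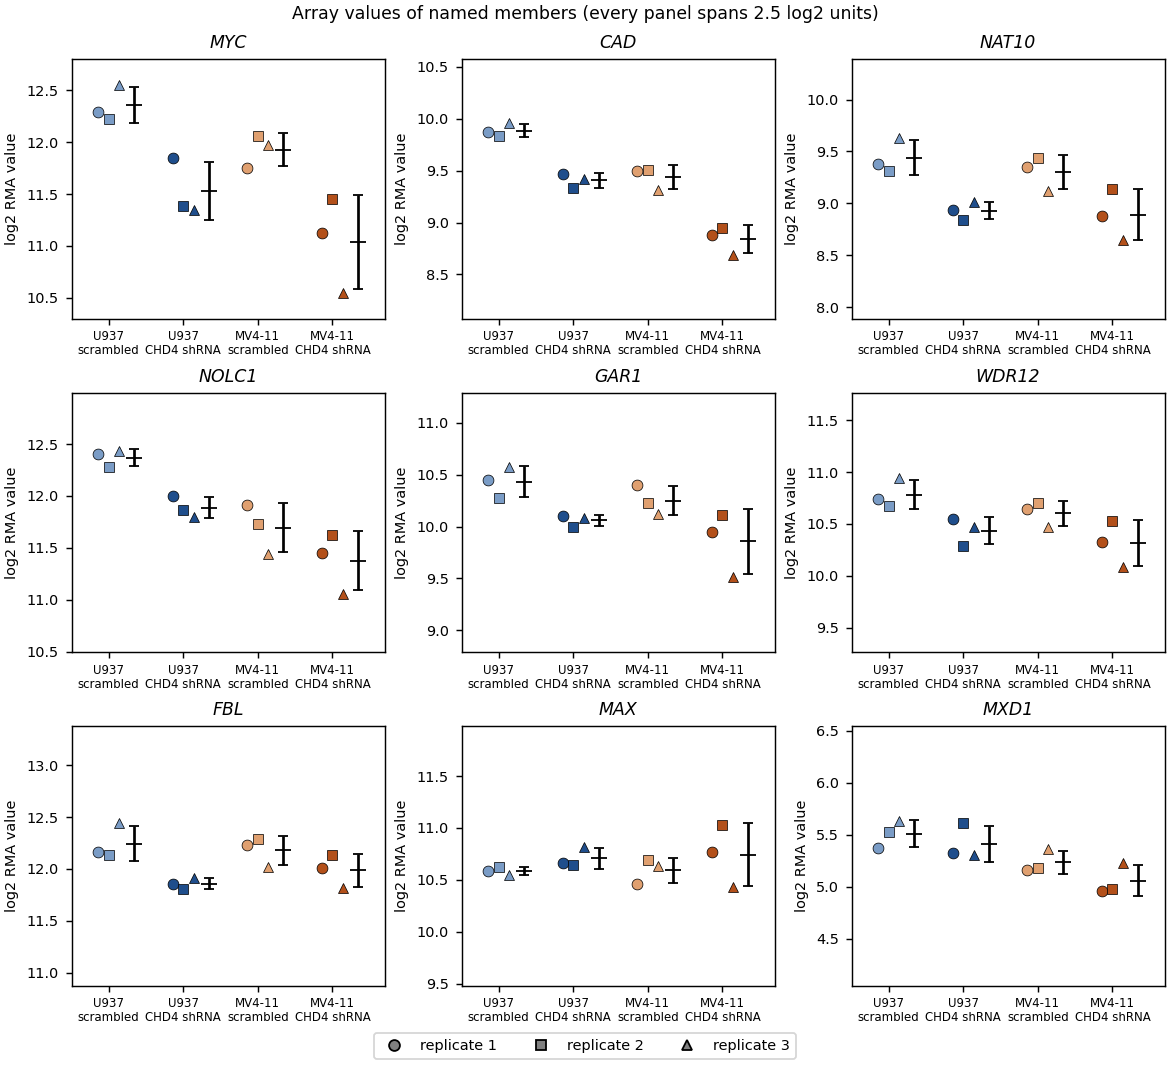
Log2 RMA values of 9 named members (vertical axes) in the 4 groups, 1 marker per array shaped by replicate number, with the group mean and SD (n = 3) beside the markers. MYC, CAD and GAR1 separate the CHD4 shRNA from the scrambled arrays in both lines, and NAT10, NOLC1, WDR12 and FBL do so in U937 and overlap in MV4-11.

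CAD, which starts pyrimidine synthesis, was the member with the lowest p in both lines. It read 9.87, 9.83 and 9.96 in U937 scrambled arrays and 9.47, 9.33 and 9.42 with the CHD4 hairpin. In MV4-11 the scrambled arrays read 9.50, 9.51 and 9.31 and the CHD4 shRNA arrays 8.88, 8.95 and 8.69. The groups did not overlap, and the SD of a group was 0.07 to 0.13. CAD fell by 0.48 on the log2 scale in U937 (SE 0.10, adjusted p = 0.012) and by 0.60 in MV4-11 (SE 0.10, adjusted p = 0.0033). The MV4-11 call held in all 20 alternative fits. In U937 CAD no longer passed when the second CHD4 shRNA array (adjusted p = 0.059) or the third scrambled array (0.051) was omitted.

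The other enzymes of this role were not past the threshold. PPAT, the first enzyme of purine synthesis, was at -0.27 in U937 and -0.11 in MV4-11. ODC1, which makes putrescine and carries 2 E-boxes in the printed window, was at -0.26 and -0.01. The spermidine synthase SRM was at -0.29 and 0.07. In U937 the 4 enzymes had changes below 0, as did 50.2% of all genes. CAD and ODC1 were lower there without overlap between the groups, as were 14.6% of all genes. In MV4-11 ODC1 spanned 10.94 to 11.66 over the scrambled arrays alone.

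A longer list of 45 measured MYC target enzymes and growth genes had 3 members lower (6.67%, against 3.69% of all genes) and 0 higher in U937. In MV4-11 4 were lower (8.89%, against 4.69%) and 1 was higher. In U937 they were the cyclin CCND2 at -1.19 (adjusted p = 0.029), the pyrimidine enzyme DHODH at -0.50 (0.030) and the folate enzyme MTHFD1 at -0.45 (0.044), all limma adjusted values. In MV4-11 the guanine nucleotide enzyme IMPDH2 was at -0.66 (adjusted p = 0.0048), the purine enzyme ATIC at -0.38 (0.028), the phosphoribosyl donor enzyme PRPS2 at -0.47 (0.035) and the serine enzyme SHMT2 at -0.38 (0.035). The cyclin CCND3 rose there by 1.09 (adjusted p = 0.022). Averaged over both lines 10 of the 45 fell (22.2%, against 10% of all genes) and 1 rose.

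NAT10, the acetyltransferase of 18S ribosomal RNA and a 40S maturation factor, was, with CAD and MYC, past the threshold in U937. It read 9.38, 9.31 and 9.63 in the scrambled arrays and 8.94, 8.84 and 9.01 with the CHD4 hairpin, a fall of 0.51 on the log2 scale (SE 0.13, adjusted p = 0.042). Without any one of the 6 U937 arrays its adjusted p was between 0.065 and 0.16, and it was 0.056, 0.051 and 0.063 without MV4-11 scrambled replicate 1, scrambled replicate 2 or CHD4 shRNA replicate 1. In MV4-11 the scrambled arrays read 9.35, 9.44 and 9.12 and the CHD4 shRNA arrays 8.88, 9.14 and 8.65. These groups overlapped by 1 array, and the change was -0.41 (SE 0.13, adjusted p = 0.073). With replicate numbers as pairs in MV4-11, as described below, NAT10 passed there (adjusted p = 0.018).

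Of the other 40S factors, UTP20, a scaffold of the small subunit processome with an E-box at its start, had the largest change in U937, -0.67 (SE 0.25, adjusted p = 0.14). It read 8.62, 8.52 and 8.72 in U937 scrambled arrays and 7.99, 7.73 and 8.13 with the CHD4 hairpin, without overlap. In MV4-11 it read 8.18, 7.89 and 7.64 against 8.11, 8.45 and 7.22, so that the hairpin group spanned the scrambled one. WDR43, PNO1 and RCL1 had changes of -0.21, -0.01 and -0.31 in U937 and 0.09, 0.03 and 0.28 in MV4-11, none past the threshold.

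In the nucleolus, NOLC1, which escorts snoRNPs, read 12.40, 12.28 and 12.43 in U937 scrambled arrays and 12, 11.86 and 11.80 with the CHD4 hairpin. In MV4-11 it read 11.91, 11.73 and 11.44 against 11.45, 11.62 and 11.06, with overlap. Its change averaged over both lines was -0.40 (SE 0.10, adjusted p = 0.017). It was -0.48 in U937 (adjusted p = 0.074) and -0.32 in MV4-11 (adjusted p = 0.21). With replicate numbers as pairs in MV4-11 it passed in both lines (adjusted p = 0.011 in U937 and 0.047 in MV4-11). The U937 arrays were not paired in that fit. The U937 change stayed at -0.48, and its adjusted p moved through the spread shared by the groups. Nucleolin, NCL, was at -0.27 in U937 and -0.13 in MV4-11. NPM1, the nucleolar histone chaperone that is often mutated in this leukaemia, lay between 13.75 and 14.04 on all arrays, near the top of the scale, with an averaged change of -0.09 (adjusted p = 0.34). Its 2 dimmer probe sets had averaged changes of -0.21 and -0.27, with an adjusted p of 0.049 and 0.034 in a fit over all probe sets. The RNA polymerase I subunits POLR1B and POLR1C, the MYB-binding repressor MYBBP1A and the helicase DDX21 were not past the threshold in either line.

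Of the snoRNP proteins, 4 were measured and 2 passed in the average, where 10% of all genes were lower and 18.8% passed in either direction. GAR1, a core protein of the H/ACA particles that guide pseudouridylation, read 10.45, 10.28 and 10.57 in U937 scrambled arrays and 10.10, 10.00 and 10.08 with the CHD4 hairpin. In MV4-11 it read 10.40, 10.23 and 10.12 against 9.95, 10.11 and 9.51. Like MYC and CAD, its groups did not overlap in MV4-11. Its averaged change was -0.38 (SE 0.10, adjusted p = 0.017), and it passed in neither line alone (adjusted p = 0.16 in U937 and 0.10 in MV4-11). FBL, the methyltransferase of the C/D particles, read 12.16, 12.13 and 12.44 in U937 scrambled arrays against 11.86, 11.81 and 11.91 with the CHD4 hairpin. In MV4-11 it read 12.23, 12.29 and 12.02 against 12.01, 12.13 and 11.82, with overlap. Its averaged change was -0.29 (SE 0.08, adjusted p = 0.025), and it passed in neither line alone (adjusted p = 0.071 in U937 and 0.34 in MV4-11). The H/ACA protein NHP2 and the U3 particle protein RRP9 had averaged changes of -0.05 and -0.02.

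Of the 9 measured 60S factors, WDR12, which works in the PES1 and BOP1 complex, passed in the average at -0.32 (SE 0.09, adjusted p = 0.025). That is 11.1% of them, near the 10% of all genes that were lower. In U937 and MV4-11 alone WDR12 did not pass (adjusted p = 0.14 and 0.18). WDR12 read 10.74, 10.67 and 10.94 in U937 scrambled arrays against 10.55, 10.29 and 10.47, and in MV4-11 10.64, 10.70 and 10.47 against 10.33, 10.53 and 10.09. Its partner PES1 had an averaged change of -0.15 (adjusted p = 0.30). The other 7 (NOP2, NOP16, RRS1, RRP1B, NIP7, MRTO4 and PA2G4) had changes from -0.48 to 0.00 in U937 and from -0.06 to 0.27 in MV4-11. The 60S chaperone GRWD1 and the importin IPO4 were at -0.22 and -0.36 in U937 and at 0.16 and 0.00 in MV4-11, none past the threshold.

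Over the whole set, 3 of 34 genes (8.82%) fell in U937 and 0 rose. Among all genes 3.69% were lower and 2.67% higher there, 6.36% in either direction. In MV4-11 2 of 34 (5.88%) fell and 0 rose, close to the background of 4.69% lower, with 4.73% higher and 9.42% in either direction. CAD and MYC were the 2 that fell in both lines, as 2.28% of all genes did. In the average of both lines 7 of 34 (20.6%) fell and 0 rose, where 10% of all genes were lower, 8.72% higher and 18.8% either. The 7 were CAD, MYC, NAT10, NOLC1, GAR1, WDR12 and FBL. Of the 5 with a promoter window, 3 (NAT10, FBL and GAR1) had an E-box in a window, as did 14 of 25 genes that were not called. GAR1 had it in the window of a later start and 0 in that of its first start. The averaged calls of FBL and WDR12 did not hold when any one of 5 arrays was omitted, at an adjusted p of 0.051 to 0.065. The arrays were U937 CHD4 shRNA replicate 2, U937 scrambled replicate 3, MV4-11 scrambled replicates 1 and 2, and MV4-11 CHD4 shRNA replicate 1. NOLC1 and GAR1 kept their averaged calls in all 19 alternative fits.

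**Figure D2:**
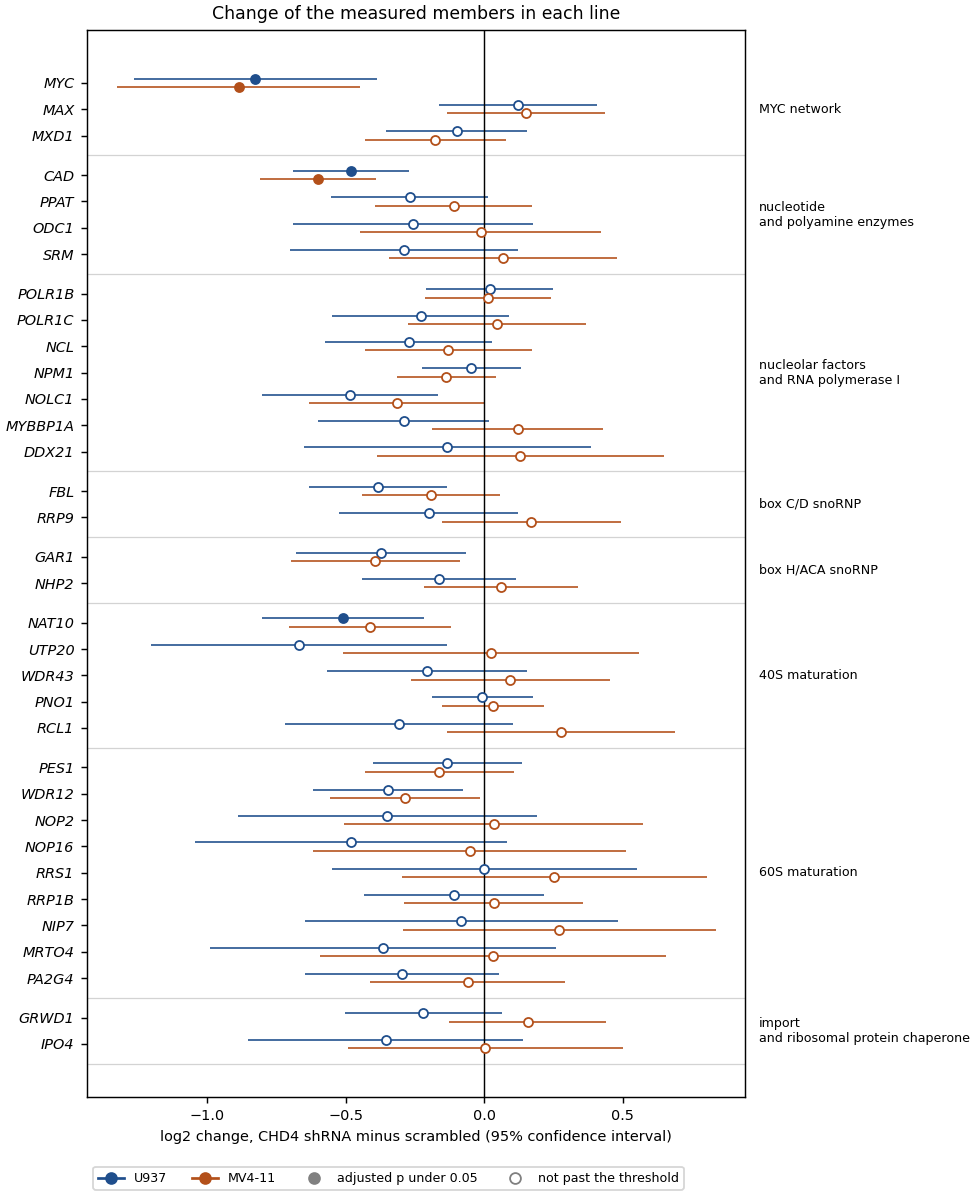
Log2 change (horizontal axis, CHD4 shRNA minus scrambled) of the 34 measured genes by role, with 95% confidence intervals from the limma fit, for U937 and MV4-11. Filled points passed the adjusted p threshold, and most U937 points lie left of 0 while the MV4-11 points lie on both sides.

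The signs of the changes were counted over all 34 genes, called or not. In U937 the change was below 0 for 31 of the 34 genes (91.2%) and the median was -0.27, against 50.2% of all genes and a median of -0.00. In MV4-11 15 of 34 (44.1%) were below 0, with a median of 0.02, against 55.1% and -0.03. The MV4-11 count changed with single arrays, and was 28 when CHD4 shRNA replicate 2 was omitted. In the average it was 29 of 34 (85.3%), against 53.8% of all genes. The arrays did not overlap and were lower with the CHD4 hairpin for 17 of 34 genes in U937, where 14.6% of all genes were in that position, and for 3 genes in MV4-11, where 14.1% were. These 3 (MYC, CAD and GAR1) were among the 17, and 6.75% of all genes were lower without overlap in both lines. MAX was the 1 gene of the 34 higher without overlap in U937 (12.2% of all genes), and 0 were in MV4-11 (11.5%). The change in MV4-11 minus that in U937 was above 0 for 27 of 34 genes and below 0 for 7, with a median of 0.23, while 51.6% of all genes were below 0. In limma 0 of the 34 passed the test of that difference after adjustment, as did 0% of all 11963 genes. Without adjustment RCL1 was under 0.05, with 546 genes (4.56%) in all. Of the 34 genes UTP20 had the largest difference, 0.69, with a 95% interval from -0.06 to 1.45.

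The median changes with the CHD4 hairpin of genes with and without the E-box letters in their windows lay close together. In U937 the 17 genes with an E-box in the window had a median change of -0.29, from -0.67 to -0.01, and the 13 without one a median of -0.22, from -0.48 to 0.12. The change in U937 was below 0 for 17 of the 17 and for 11 of the 13. In MV4-11 the medians were 0.03 and -0.05, with 6 of the 17 and 7 of the 13 below 0. Between the scrambled controls the medians were -0.32 and -0.18. No test compared the sets, and a gene without the letters in its window may hold them outside it.

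The MV4-11 CHD4 shRNA arrays lay far apart for these genes. Relative to the mean of the scrambled arrays, the median of the 34 genes was 0.08 in CHD4 shRNA replicate 1, 0.32 in replicate 2 and -0.41 in replicate 3, and 11, 9 and 34 genes lay below that mean. In U937 the 3 hairpin arrays had medians of -0.28, -0.37 and -0.11, with 33, 30 and 30 genes below. Replicate 3 was the lowest of the 3 arrays for 32 of the 34 genes, and for 34.6% of all genes. Replicate 2 was the highest for 29 of the 34, and for 36% of all genes. The median SD over these 3 arrays was 0.31 for the 34 genes and 0.14 for all genes. In the other groups it was between 0.13 and 0.16 for the 34 genes. MRTO4, a 60S factor, showed the spread, at 9.77, 10.21 and 8.87 in the CHD4 shRNA arrays. MYC and CAD were below the scrambled mean in all 3, MYC by 0.81, 0.48 and 1.38 in replicates 1, 2 and 3.

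The scrambled MV4-11 arrays showed the same order for replicate 3. Their medians over the 34 genes were 0.14, 0.06 and -0.17 from the group mean. The log2 signal of the 3′ over the 5′ control probe set of ACTB, a measure of RNA integrity and labelling, was 1.37, 1.13 and 1.5 in the scrambled and 1.37, 1.21 and 1.45 in the CHD4 shRNA arrays 1, 2 and 3, highest in replicate 3 of both groups. The same measure for GAPDH lay between 0.27 and 0.33 in these 6 arrays. The monocyte differentiation list followed the order of the 34 genes over the CHD4 shRNA arrays, with median levels of 8.37, 8.68 and 7.53 and summed signals of 28618, 34587 and 26738 in replicates 1, 2 and 3. The part of these measures in the spread was not tested.

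**Figure D3:**
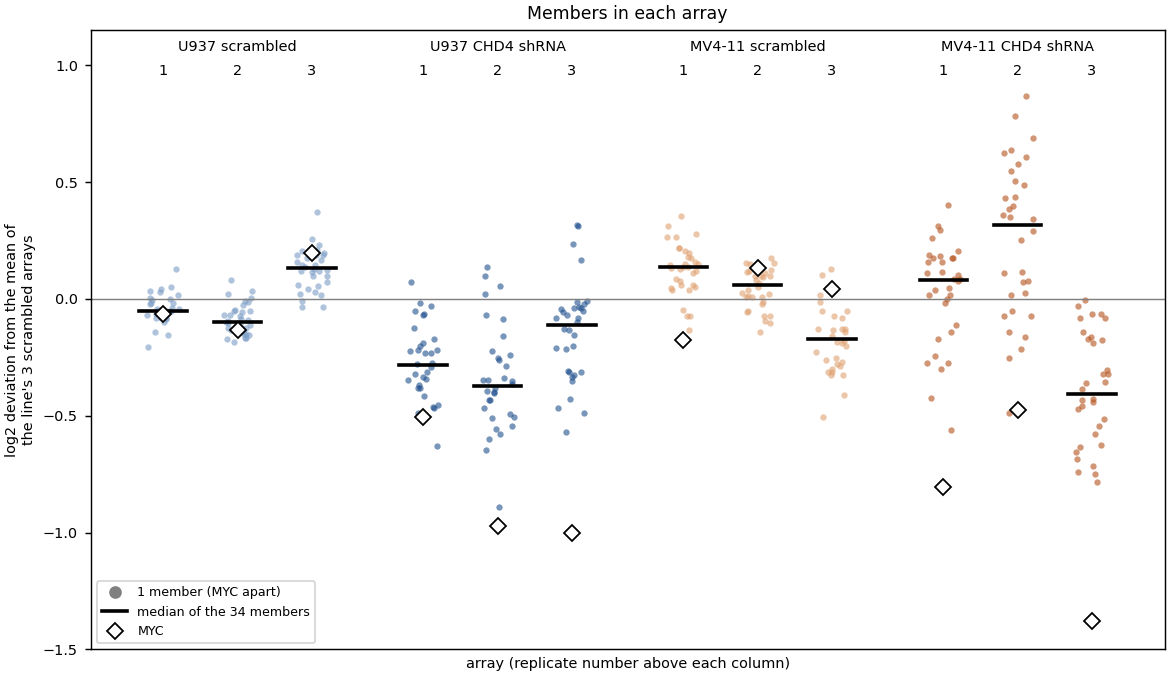
Deviation of each of the 34 genes from the mean of its line's 3 scrambled arrays (vertical axis, log2) in the 12 arrays, with the median as a bar and MYC as a diamond. The MV4-11 CHD4 shRNA arrays have medians of 0.08, 0.32 and -0.41, while MYC lies below 0 in all 6 CHD4 shRNA arrays.

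Replicate numbers could be used as pairs in MV4-11, since arrays of the same number deviated together there over all genes. Within the pairs MYC differed by -0.63, -0.61 and -1.42, CAD by -0.62, -0.56 and -0.62, NAT10 by -0.47, -0.30 and -0.47, GAR1 by -0.45, -0.12 and -0.61 and NOLC1 by -0.46, -0.11 and -0.38. Each of these genes was lower in 3 of 3 pairs. With the replicate block in MV4-11 alone 5 members passed in MV4-11 in place of 2, all lower, against 15.9% of all genes in either direction (9.42% without the block). They were CAD, MYC, NAT10 (adjusted p = 0.018), GAR1 (0.032) and NOLC1 (0.047). In the same fit 6 members passed in U937 in place of 3, all lower, against 9.76% of all genes in either direction. They were CAD, NAT10, NOLC1 (0.011), MYC, UTP20 and FBL (0.029). The U937 arrays had no block in that fit, so the U937 changes stayed as they were. The added U937 calls came through the spread per gene, which the groups share. With a block within each line WDR12 passed in MV4-11 as well (0.046). The median over the 34 genes was -0.07, 0.18 and -0.21 in pairs 1, 2 and 3. The number of genes with a change below 0 in MV4-11 was 15 with all arrays. It was 28 when the second CHD4 shRNA array was omitted, 10 when the last one was omitted and 24 when scrambled replicate 3 was omitted. For the average of both lines it was 29, and 19 without MV4-11 CHD4 shRNA replicate 3.

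The lines also differed before CHD4 was targeted. In scrambled controls 33 of the 34 genes were lower in MV4-11 than in U937, against 56.7% of all genes, with a median difference of -0.26. The arrays did not overlap for 16 of them, all lower in MV4-11, where 14.4% of all genes were in that position and 11.9% in the opposite one. CAD (difference -0.45, SE 0.10, adjusted p = 0.017) and NOLC1 (-0.68, SE 0.15, adjusted p = 0.017) passed, 2 of 34 (5.88%) against 2.51% lower, 2.97% higher and 5.48% in either direction among all genes. Neither passed when the first U937 scrambled array (0.063 for CAD and 0.075 for NOLC1), the third U937 scrambled array (0.058 and 0.057) or the third MV4-11 scrambled array (0.083 and 0.083) was omitted. NOLC1 also needed the second MV4-11 scrambled array (0.056). MYC was 11.93 ± 0.16 in MV4-11 and 12.35 ± 0.17 in U937 scrambled arrays (SD, n = 3), a difference of -0.43 (95% interval -0.87 to 0.01, adjusted p = 0.26). The U937 scrambled arrays serve as the reference both here and for the U937 hairpin comparison.

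For UTP20 the 4 group means were 8.62 ± 0.10 and 7.95 ± 0.20 in U937 and 7.90 ± 0.27 and 7.93 ± 0.64 in MV4-11, scrambled first (SD, n = 3). The U937 scrambled mean was the highest of the 4, but neither limma comparison with it passed in the main fit. The adjusted p was 0.14 for the U937 hairpin and 0.12 between the scrambled controls. That fit shares 1 spread per gene over the 4 groups, and the MV4-11 CHD4 shRNA group had the largest SD. UTP20 passed both comparisons with only the groups compared, and when MV4-11 CHD4 shRNA replicate 3 was omitted. It passed neither when any other array was omitted. The other 3 means did not differ beyond their spread. For CAD the order was U937 scrambled (9.89 ± 0.07), MV4-11 scrambled (9.44 ± 0.11), U937 CHD4 shRNA (9.41 ± 0.07) and MV4-11 CHD4 shRNA (8.84 ± 0.13), all with n = 3. The middle pair differed by less than its spread.

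Other ribosome biogenesis genes were followed with lists of RNA polymerase I, 40S, 60S and exosome factors, 103 of 129 measured. In U937 8 of the 103 fell (7.77%, against 3.69% of all genes) and 0 rose, with a median change of -0.18. In MV4-11 4 fell (3.88%, under the 4.69% of all genes) and 3 rose, with a median of -0.05, so the falls there were at the background share. DDX10, HEATR1 and POLR1E fell in both lines. The helicase DDX10 fell by 0.70 on the log2 scale in U937 and by 0.57 in MV4-11 (SE 0.11, adjusted p = 0.0032 and 0.0074). The processome scaffold HEATR1 was at -0.55 and -0.58 (SE 0.12, adjusted p = 0.015 and 0.0097). The RNA polymerase I subunit POLR1E was at -0.54 and -0.63 (SE 0.12, adjusted p = 0.021 and 0.0078). In MV4-11 DDX52, TEX10 and the polymerase I factor TAF1B rose, by 0.66, 0.54 and 0.67 (adjusted p = 0.028, 0.036 and 0.042).

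In U937 the other calls in these lists were UTP25 at -0.65, IMP4 at -0.49 and DIMT1 at -0.45 among 40S factors and NUFIP1 at -0.60 and DDX31 at -0.39 among 60S factors. In MV4-11 the 60S factor URB1 changed by -0.46 (adjusted p = 0.033). Averaged over both lines 15 of the 103 fell (14.6%, against 10% of all genes) and 4 rose. The 12 exosome and 5.8S factors had 0 calls in either line. In the average 2 fell (16.7%, against 10% of all genes), EXOSC8 at -0.26 and MTREX at -0.22.

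The protein components of the ribosome had small changes, most of them below 0. Of 52 measured cytosolic ribosomal proteins 0 passed in either line, and the changes ran from -0.16 to 0.12 in U937 and from -0.27 to 0.09 in MV4-11, with medians of -0.03 and -0.07. The change was below 0 for 41 of the 52 in U937 (78.8%, against 50.2% of all genes) and for 47 in MV4-11 (90.4%, against 55.1%). The arrays were lower without overlap for 16 of them in U937 and 26 in MV4-11, positions held by 14.6% and 14.1% of all genes. RPL12 and RPL3 fell in the average, by 0.21 and 0.20 on the log2 scale (adjusted p = 0.020 and 0.030). They were 3.85% of the 52, under the 10% of all genes that were lower in the average.

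**Figure D4:**
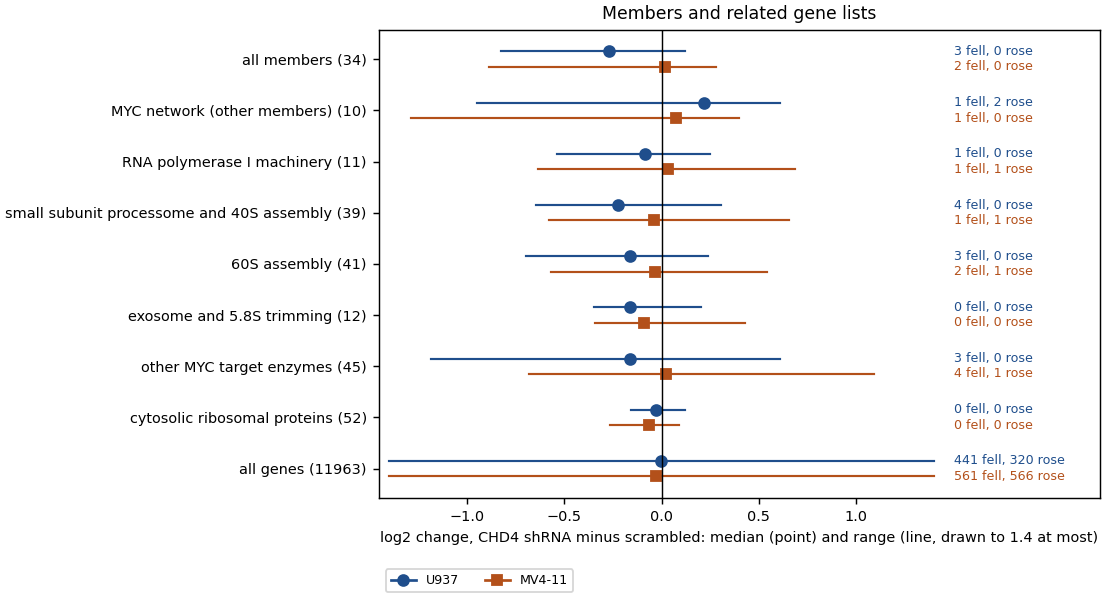
Median (point) and range (line, drawn to 1.4 at most) of the log2 change, CHD4 shRNA minus scrambled, for the members, 7 related lists and all genes, with measured numbers in brackets and calls at the right. The members' median is -0.27 in U937 and 0.02 in MV4-11, and the ribosomal proteins run from -0.16 to 0.12 in U937.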

How the data were processed

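The table the authors deposited holds log2 expression values of 12 Affymetrix arrays. RMA was the method per the submitters' processing notes, with a version not given in the sources used here. Values ran from 2.54 to 15.11. Because RMA gives every array the same quantiles, a shift common to most genes is invisible, and background compresses the folds of dim genes. The number of arrays limits the precision.

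Of 22277 probe sets, 62 controls were left out, 19064 had 1 gene symbol, 1043 several and 2108 none. Symbols were updated through Entrez identifiers in the RefSeq gene table, where 19052 probe sets were found. The probe set with the highest mean represented a gene. One limma 3.58.1 model (R 4.3.3) with 4 groups was fitted to 12 arrays (eBayes, 8 residual and 4.66 prior degrees of freedom), with Benjamini-Hochberg adjustment over 11963 genes. Permutation tests were exact and two-sided. The code was tested on simulated data. The series description calls the triplicates biological, and p-values measure the spread between these arrays.

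The members, lists, naming rule and tests were chosen with earlier results of these data known. Named are MYC, MAX and MXD1, members called in either line or the average, the lowest p of each role, and members called between scrambled controls; of each list, at most 3 called genes per direction. Other members given with values, such as UTP20, and the list genes UTP25 and SHMT2 were added after their values were seen.

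Titles number the replicates 1 to 3 in every group. Deviations from group means of same-numbered arrays correlated at 0.46, 0.48 and 0.49 in MV4-11, which were taken as pairs, and at 0.00, 0.35 and 0.34 in U937, which were not. What a number stands for is not given. Alternatives were a filter on dim genes, quantile normalization, median centring, eBayes with trend, probe set means, only the groups compared, replicate blocks, a threshold of 0.1 and leaving out each array.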

Additional observations from a re-analysis of the deposited data

How the results depend on the processing

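The count of members past the threshold was recomputed under each alternative. Percentages in brackets are the share of all genes called in the same fit, in either direction. In U937 the count was 3 (6.36%) and became 6 with only the U937 arrays (7.07%). It was 8 where each line had a replicate block (12.3%), with WDR12 and GAR1 among the 8. It was 6 where MV4-11 alone had a block (9.76%) and 5 at a threshold of 0.1 (9.58%). Same-numbered U937 arrays were not taken as pairs. In MV4-11 the count was 2 (9.42%) and became 1 with only the MV4-11 arrays (4.29%). It was 6 where each line had a replicate block (19.7%) and 5 where MV4-11 alone had a block (15.9%). The average of both lines (7), the difference between lines (0) and the scrambled controls (2) stayed within 1.5 times of these counts under every alternative other than leaving out an array. Without 1 array the counts ran from 0 to 6 in U937, from 1 to 3 in MV4-11, from 5 to 7 in the average, from 0 to 0 for the difference and from 0 to 3 for the scrambled controls; each was refitted with the spread pooled over the groups. In U937 the count was 0 without CHD4 shRNA replicate 2 (2.56%) or scrambled replicate 3 (3.29%), and 6 without MV4-11 CHD4 shRNA replicate 3 (7.92%). The cause was not tested. For the controls a replicate block gave no value, since it holds the line. The difference and the average need both lines and were not fitted with fewer groups. No called value of a named member changed sign under any alternative run. Quantile normalization or centring moved the median of all genes by under 0.1.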
